A study of Mus musculus with 6 samples.

Results

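The genes of interest were 9 genes of striated muscle, Ttn, Neb, Ryr2, Actn2, Myom1, Cacna1s, Myh3, Myh6 and Myh7, read for methylated DNA in cells that are not muscle. They were taken by name from 15771 protein-coding genes on the sequence covered by the data, and jointly held 155 of 84111 peaks of methylated DNA with their midpoint in the gene body. They had been chosen by their peak numbers in this same list, so every value below is a description and carries no test.

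The peaks came from MBD-seq, in which the methyl-CpG-binding protein MBD2 pulls down methylated fragments before sequencing. The series holds 6 primary cultures of chondrocytes from mouse knee articular cartilage, taken at postnatal day 3 to 5. The 3 control cultures carried the genotype Dnmt1 flox, and the 3 conditional knockout (cKO) cultures the genotype Prx1-Cre;Dnmt1 flox/flox. Prx1-Cre acts in limb mesenchyme, the tissue that gives rise to limb cartilage, and Dnmt1 is the enzyme that copies CpG methylation onto newly made DNA strands. The data were 1 peak list called on 3 merged datasets, which the title of the list ties to Dnmt1-mediated methylation. The list names no sample, so it gives no value for either group, no spread between mice and no depth per sample. Control and cKO could not be compared for any gene, and the density of peaks is a property of the merged set. Each peak is an excess of captured reads over the background that the caller set, and the samples behind that background are not named. The number of peaks is therefore not a level of methylation. The list also holds no expression values.

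Striated muscle contracts through the sarcomere, a repeat of thick myosin filaments sliding past thin actin filaments. Titin (Ttn) spans from the Z disc, where alpha-actinin 2 (Actn2) crosslinks the thin filaments, to the M band, where myomesin 1 (Myom1) ties the thick filaments together. Nebulin (Neb) runs along the thin filament of skeletal muscle. Contraction is triggered when a voltage-sensing calcium channel opens ryanodine receptors, which release calcium from the sarcoplasmic reticulum. Cacna1s is the voltage sensor of skeletal muscle, and Ryr2 is the ryanodine receptor of heart. Myh3, Myh6 and Myh7 encode the embryonic, alpha cardiac and beta cardiac or slow myosin heavy chains. Methylation inside gene bodies is common in mammalian genomes and is read apart from methylation at promoters.

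All 9 genes held at least 1 peak, a state shared by 64.7% of protein-coding genes and by 85.0% of those of at least 20 kb. The number ran from 6 in Myh7 to 69 in Ttn. Pooled, the genes had 11.3 peaks per 100 kb over 1370 kb, against 5.69 per 100 kb over all protein-coding genes. Ttn alone supplied 44.5% of the peaks. Without Ttn the density was 7.88 per 100 kb, and without Ryr2, the longest gene and the one with the fewest peaks per 100 kb, it was 17.6. The pooled value thus depended on these 2 genes.

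Because long genes collect more peaks, each gene was set beside the protein-coding genes no more than 20% shorter or 25% longer than itself. Only length was matched, and the CpG content of gene bodies and their overlap with exons were not computed. Of the 9 genes, all but Ryr2, 8 in number, had more peaks per 100 kb than the median of those genes. This state was shared by 44.5% of all protein-coding genes and 49.9% of those of at least 20 kb. At or above the 95th percentile were 3 of the 9 genes, Ttn, Myh3 and Myh6, where 5.03% of all protein-coding genes lie. In short genes a single peak weighs more: in Myh7, 1 peak alone comes to 4.18 per 100 kb, and 72.4% of the genes of its length had any.

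**Figure D1:**
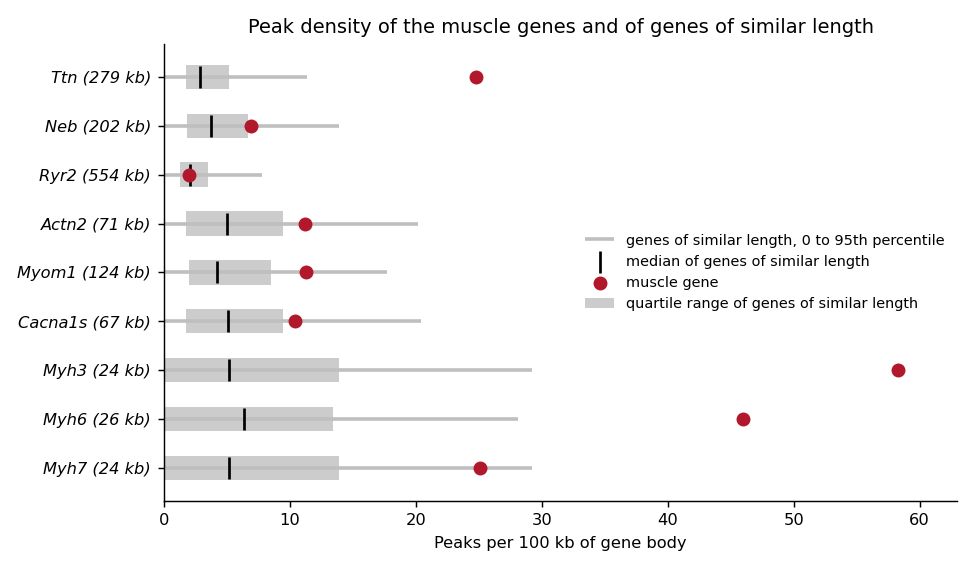
Peaks per 100 kb of gene body (x axis) in the 9 muscle genes (red points) and in protein-coding genes of similar length (grey box, quartile range; black tick, median; grey line, 0 to the 95th percentile). Ttn at 24.8, Myh3 at 58.3 and Myh6 at 46.0 lie beyond the grey lines, and Ryr2 at 1.99 lies beside its median of 2.08.

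The myosin heavy chain genes were the densest. Myh3, the myosin of embryonic and regenerating muscle (gene 17883, chr11:67078273-67102291, plus strand), had 14 peaks in 24.0 kb, or 58.3 per 100 kb. The median of 1959 genes of similar length was 5.17 per 100 kb, and 1 of them, Ints1, reached a higher value (61.4). Among all 7577 protein-coding genes of at least 20 kb, Myh3 ranked 2. Peaks covered 22.3% of its body, the largest share among the 9 genes. They were spaced a median of 1.15 kb apart, and no stretch of more than 4.72 kb was without one.

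The 2 cardiac myosin genes lie next to each other on chromosome 14, both on the minus strand. Myh6, the fast alpha chain of the adult mouse heart (gene 17888, chr14:54941921-54968017), had 12 peaks in 26.1 kb, 46.0 per 100 kb, a value above 99.4% of 1990 genes of similar length. Myh7, the beta chain of fetal heart and slow skeletal muscle (gene 140781, chr14:54970684-54994626), had 6 peaks in 23.9 kb, 25.1 per 100 kb, above 93.0% of 1961 genes. Myh6 thus held 2 times as many peaks as its neighbour. Peak width evened this out, since peaks covered 16.0% of Myh6 and 16.6% of Myh7. The median width was 377 bp in Myh6 and 528 bp in Myh7, whose widest peak spanned 1456 bp at chr14:54972691-54974146 with a fold of 33.9. The 2.67 kb between the genes held 0 peaks.

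These 3 genes also hold microRNA genes. Mir208a in Myh6 and Mir208b in Myh7 are known as intronic microRNAs made together with their host myosins in heart and slow muscle, and Mir6923 lies inside Myh3. Their mature forms are shown because the hosts are dense in peaks while the microRNAs differ in whether a peak covers them. Sequences are from RefSeq (GRCm38.p6), 5′ to 3′, with the seed (bases 2 to 8) in capitals.
miR-6923-5p: gUGAGGGCaggaggauuggggugu
miR-208a-3p: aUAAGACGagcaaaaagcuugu
miR-208b-3p: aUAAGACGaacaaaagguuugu
miR-208a-5p: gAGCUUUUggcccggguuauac
miR-208b-5p: aAGCUUUUugcucgcguuaugu
The 3p forms of miR-208a and miR-208b share the seed UAAGACG, and their 5p forms share AGCUUUU. The hairpin of Mir6923 (chr11:67099804-67099875, plus strand) lay wholly within the widest and most enriched peak of Myh3, at chr11:67099142-67099976. That peak had a width of 835 bp, a fold of 40.0 and a −log10 q of 364. The hairpin of Mir208a (chr14:54949060-54949142, minus strand) lay 265 bp from the nearest peak, which was narrow (194 bp) and weak (fold 8.95). The hairpin of Mir208b (chr14:54975700-54975776, minus strand) lay 1554 bp from the nearest peak. Neither of these hairpins was covered by a peak.

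Titin had the most peaks. Ttn (gene 22138, chr2:76703980-76982557, minus strand) held 69 peaks in 279 kb, 24.8 per 100 kb, and ranked 8 in peak number among the 15771 protein-coding genes. The median of 310 genes of similar length was 2.88 per 100 kb, and 1 of them, Abcc4, lay above Ttn at 25.8. Peaks covered 14.3% of the body. Widths ran from 64 to 3543 bp around a median of 478 bp, and 7 of the 69 peaks were wider than 1 kb. In the other 8 genes together 1 of 86 was (1.16%), and in protein-coding gene bodies 4.10% of peaks were. Folds in Ttn ran from 5.14 to 45 with a median of 16.1. The most enriched peak lay 12.8 kb into the gene at chr2:76969435-76970163 and had a −log10 q of 426.

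Peaks along Ttn were uneven. In 10 equal parts from the start of the gene, the numbers were 4, 7, 5, 8, 3, 0, 7, 7, 13 and 15. No peak lay between 131 and 168 kb from the start, a gap of 37.0 kb in a gene whose peaks were otherwise a median of 1.96 kb apart. The last 2 parts, which encode the end of the protein that lies toward the M band, had 28 peaks in 55.7 kb (50.3 per 100 kb), and the first 8 parts had 41 (18.4 per 100 kb). This division was made after the counts were seen.

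The end of Ttn also differed in the background behind its peaks. The peak caller weighs the reads of a peak (its pileup) against a background, and both could be recovered from the fold and p-value of each peak. The lowest background, 6.37 reads, was shared by 75% of all peaks and stands for a genome-wide average in callers of the MACS kind. A higher one stands for reads of the caller's comparison set near the peak. In Ttn 23 of 69 peaks had a higher background, and in the other 8 genes 5 of 86 (5.81%), against 14.9% of peaks in protein-coding gene bodies. In the last 2 of the 10 parts of Ttn this held for 17 of 28 peaks (60.7%), and in the first 8 for 6 of 41 (14.6%). The widest peak, 3543 bp at chr2:76709310-76712852, had a fold of 5.52, from a pileup of 374 and a background of 66.9 reads. Median pileups were 190 reads in the last 2 parts and 135 before them, while median folds were 16.0 and 16.7. A second group of 4 peaks with backgrounds of 12.0 to 39.9 reads lay 27.1 to 37.6 kb from the start. Which samples formed the comparison set is not given in the sources used here.

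**Figure D2:**
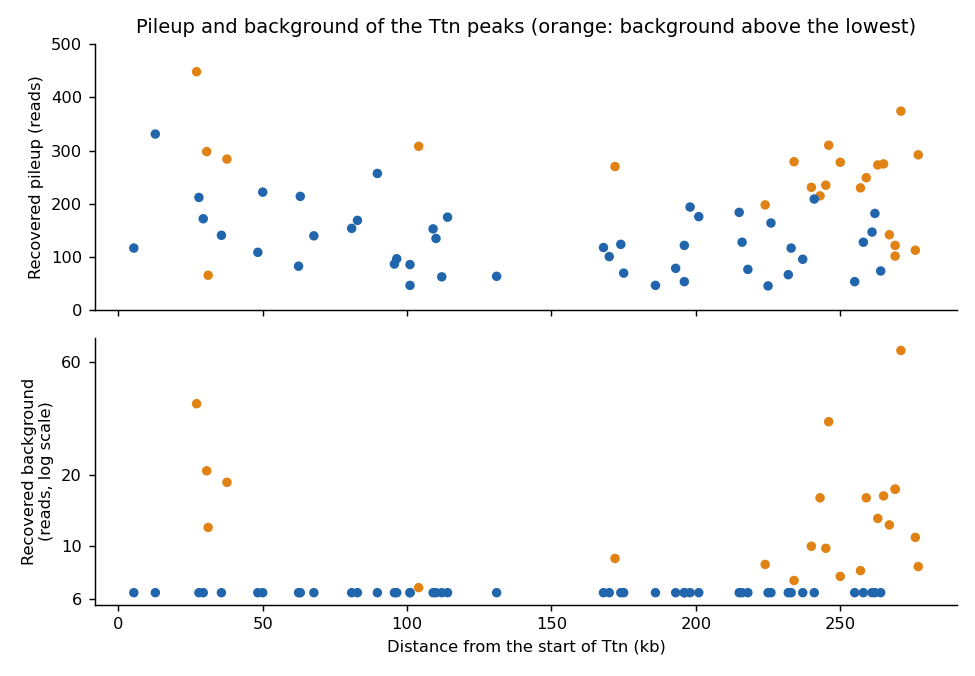
Recovered pileup (upper panel, reads) and recovered background (lower panel, reads, log scale) of the 69 Ttn peaks against distance from the start of the gene (kb); each point is a peak, orange where the background is above the lowest. Of the 23 orange points, 17 lie in the last 2 of 10 equal parts of the gene, and the stretch from 131 to 168 kb is empty.

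Nebulin, the other giant of the sarcomere, was far less dense. Neb (gene 17996, chr2:52136640-52338798) had 14 peaks in 202 kb, 6.93 per 100 kb, above 76.9% of 467 genes of similar length. Peaks covered 2.63% of the body. A run of 6 of them lay between 65.3 and 86.2 kb from its lower coordinate, among them the most enriched at chr2:52221479-52222027 (fold 29.2). The longest stretch without a peak was 48.6 kb. Every peak of Neb had the lowest background.

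The genes of the Z disc and M band were alike in density. Actn2 (gene 11472, chr13:12269426-12340732, minus strand) had 8 peaks in 71.3 kb, 11.2 per 100 kb, above 80.3% of 1241 genes of similar length. Its peaks were among the stronger, with a median fold of 22.7 and 5 of 8 at a fold of at least 20. They began 31.8 kb from the start of the gene. Myom1 (gene 17929, chr17:71003332-71126856, plus strand) had 14 peaks in 124 kb, 11.3 per 100 kb, above 85.9% of 822 genes. Its median fold was the lowest of the 9 genes, 12.7, although its most enriched peak, at chr17:71036126-71036723, reached 38.9. The same density therefore came with stronger peaks in Actn2 and weaker ones in Myom1.

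The 2 calcium channel genes differed from each other. Cacna1s, the voltage sensor of skeletal muscle (gene 12292, chr1:136052806-136119822, plus strand), had 7 peaks in 67.0 kb, 10.4 per 100 kb, above 78.4% of 1275 genes of similar length. The first lay 31.6 kb from the start, and the most enriched, at chr1:136105217-136106110, had a fold of 39.9. Ryr2, the ryanodine receptor of heart and brain (gene 20191, chr13:11553099-12106945, minus strand), had 11 peaks in 554 kb. Its 1.99 peaks per 100 kb compare with a median of 2.08 in 125 genes of similar length, 46.4% of which were lower. Peaks covered 0.785% of its body, the smallest share of the 9 genes. After a peak 4.15 kb from the start, at chr13:12102534-12103064 with a fold of 34.3, no further one followed for 272 kb, and 5 of the 11 lay between 346 and 380 kb from the start. The median fold of the Ryr2 peaks was 14.7, against 16.1 in Ttn and 16.6 to 19.9 in the 3 myosin genes, and its strongest peak had a fold of 35.5, where theirs ran from 33.9 to 45.

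Positions along the genes were compared from the start of the gene model, for the 8 genes whose strand the RefSeq promoter table gives. Of their 141 peaks, 31 (22%) lay in the first of 3 equal parts of the gene, 39 (27.7%) in the middle part and 71 (50.4%) in the last. Over all protein-coding genes with a strand the shares were 23.2%, 31.7% and 45.1%. Without Ttn, the shares of the other 7 genes were 19.4%, 33.3% and 47.2%. The tilt toward the end of the gene was thus one that these genes had in common with protein-coding genes at large. Myh7 went the other way, with 3 peaks in its first part and 2 in its last.

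**Figure D3:**
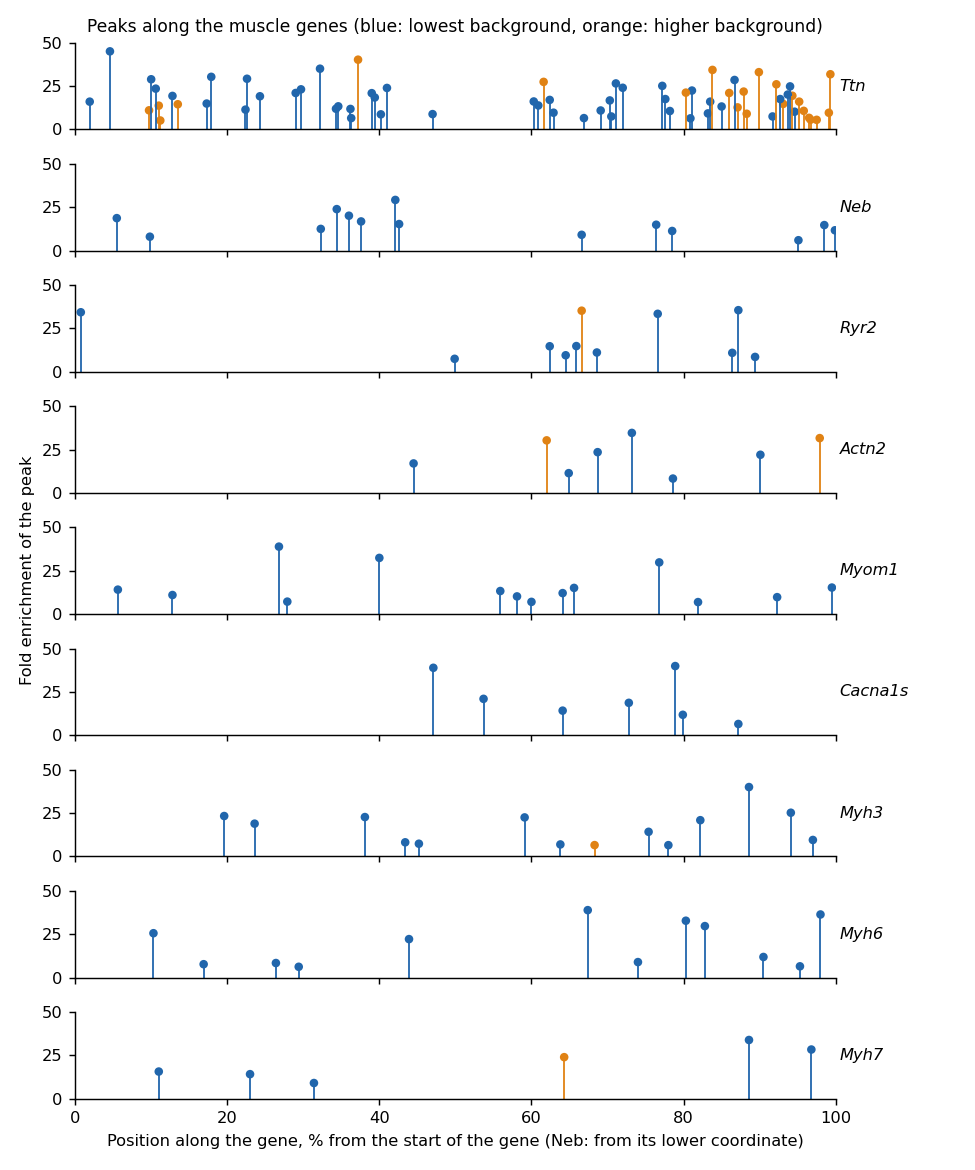
Fold enrichment (y axis) of each of the 155 peaks against its position along the gene in percent of gene length (x axis), 1 panel per gene, blue for peaks with the lowest background and orange for a higher one. Actn2 and Cacna1s hold 0 peaks in the first of 3 equal parts of their length, and Ttn crowds toward its end.

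Promoters were read next. The RefSeq table gives 9 windows of 300 bases (250 before and 50 after a transcription start) for 8 of the genes, 2 of them for Myh7. A peak overlapped 1 of the 9 windows, where 2.96% of 15401 windows of protein-coding genes were overlapped. The exception was Myom1, at a start that lies inside the gene model, and the overlap was 12 bases with a peak of fold 11 at chr17:71019054-71019318. From the other starts, the distance to the nearest peak midpoint ran from 1.27 kb in Myh6 to 18.6 kb in Cacna1s.

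MBD2 binds methylated CpG, and promoter windows differ in how many CG dinucleotides they hold. Windows of 4 genes are shown for this reason: the 1 touched by a peak, the gene with most peaks, a dense gene with few CG and the sparse gene with many. They are from RefSeq (GRCm38.p6), 5′ to 3′ on the strand of the gene, with every CG in capitals.
Myom1, chr17:71019307-71019606, plus strand: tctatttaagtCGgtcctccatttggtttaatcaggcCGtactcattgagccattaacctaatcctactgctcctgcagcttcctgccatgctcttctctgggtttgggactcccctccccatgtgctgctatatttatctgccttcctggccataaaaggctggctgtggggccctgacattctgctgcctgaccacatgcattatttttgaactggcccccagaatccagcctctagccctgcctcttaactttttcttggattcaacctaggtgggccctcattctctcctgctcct
Ttn, chr2:76982498-76982797, minus strand: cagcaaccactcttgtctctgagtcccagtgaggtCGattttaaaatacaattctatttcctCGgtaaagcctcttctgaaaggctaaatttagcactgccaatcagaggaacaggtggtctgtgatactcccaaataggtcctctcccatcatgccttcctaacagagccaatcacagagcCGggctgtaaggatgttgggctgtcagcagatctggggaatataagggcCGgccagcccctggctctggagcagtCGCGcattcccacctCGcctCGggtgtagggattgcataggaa
Myh6, chr14:54966558-54966857, minus strand: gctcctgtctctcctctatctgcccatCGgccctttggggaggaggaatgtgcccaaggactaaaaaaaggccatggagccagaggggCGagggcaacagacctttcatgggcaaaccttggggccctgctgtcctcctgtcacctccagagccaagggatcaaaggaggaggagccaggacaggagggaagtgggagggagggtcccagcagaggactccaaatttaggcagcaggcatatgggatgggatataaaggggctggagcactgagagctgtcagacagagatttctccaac
Ryr2, chr13:12106896-12107195, minus strand: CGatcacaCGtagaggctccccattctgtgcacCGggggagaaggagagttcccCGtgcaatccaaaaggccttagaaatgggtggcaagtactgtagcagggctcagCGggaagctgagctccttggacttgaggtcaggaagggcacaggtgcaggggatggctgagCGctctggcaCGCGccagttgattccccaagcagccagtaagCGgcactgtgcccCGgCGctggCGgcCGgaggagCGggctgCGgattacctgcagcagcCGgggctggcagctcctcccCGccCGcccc
The Myom1 and Myh6 windows hold 2 CG each, and 16.0% of protein-coding windows hold as few. The Ttn window holds 8 and the Ryr2 window 18, around the median of 14. Actn2 had the most, 19, and no peak in its window. The peak at Myom1 covers the first 12 bases of the sequence as printed. Across protein-coding windows, those with at most 5 CG were overlapped in 2.01% of cases, those with 6 to 9 in 10.5% and those with at least 10 in 2.07%. The windows of Ttn (8) and Cacna1s (9) were in the middle class, and neither was overlapped.

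Both ends of the gene models were read as well. Within 1 kb of either end lay 7 peaks, at 6 of the 9 genes. A peak at either end was a state shared by 21.8% of protein-coding genes. Start and end of transcription were taken as the bounds of the gene model. In the 8 genes with a strand, all 5 such peaks were at the end of transcription (Actn2, Myom1, Myh3, Myh6 and Myh7) and 0 at the start. The promoter window start of Myom1, inside its gene model, had a peak midpoint 0.371 kb away. Among 12547 protein-coding genes with a strand, 16.9% had a peak within 1 kb of the end of transcription and 6.72% within 1 kb of the start. The end peak of Myh6, chr14:54942169-54942722, was the strongest with a fold of 36.4, followed by that of Myh7, chr14:54971208-54971693, with 28.4. In Actn2 the peak lay 380 bp beyond the gene at chr13:12268925-12269166 with a fold of 9.63. The peaks of Myom1 (fold 15.3) and Myh3 (fold 9.5) were inside the gene. The other 2 were at the higher coordinate of Neb, 1 inside (fold 11.7) and 1 outside (fold 8.0). Neb has no strand in the promoter table, so these were assigned to neither start nor end. With a window of 500 bp the number was 3, and with 2 kb it was 11.

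The 155 peaks were set beside the peaks in all protein-coding gene bodies. Their median width was 407 bp (quartiles 298 and 558), against 393 bp for the 44414 peaks in gene bodies. Their median fold was 15.3 (quartiles 9.97 and 23.9), against 13.7. A fold of at least 20 was reached by 59 of them (38.1%), against 30.9%. Without Ttn, the median width was 380 bp, below that of gene bodies. The median fold was then 14.9, and 38.4% of the peaks reached a fold of at least 20.

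The surroundings of each gene were counted over 100 kb on either side. Of the 9 genes, 7 were denser than both of their flanks, where 36.5% of protein-coding genes of at least 20 kb were. Ttn had 24.8 peaks per 100 kb between flanks of 11 and 2 peaks. Myh3 had 58.3 between 3 and 19, the latter on the side of the other skeletal myosin genes. The flanks of Myh6 (8 and 14) and Myh7 (19 and 12) each include the neighbour. Cacna1s lay between its flanks of 6 and 15, and Ryr2, at 1.99, was below both of its flanks of 6 and 4.

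**Figure D4:**
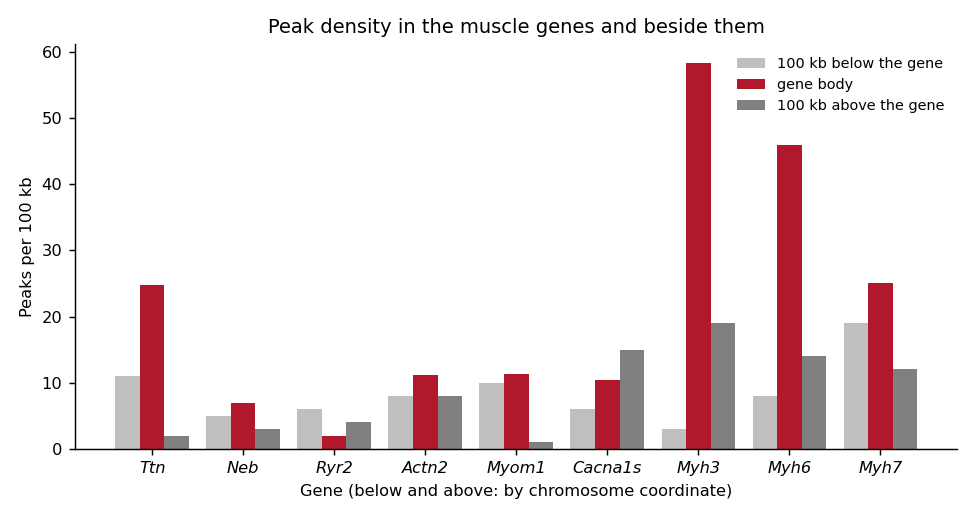
Peaks per 100 kb (y axis) in the body of each muscle gene (red) and in the 100 kb below (light grey) and above (dark grey) it by chromosome coordinate. The red bar is the highest in 7 of the 9 genes, the exceptions being Ryr2 and Cacna1s.

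The skeletal myosin cluster showed the same contrast between genes and the space between them. On chromosome 11 the genes lie in the order Myh3, Myh2, Myh1, Myh4, Myh8 and Myh13 over 293 kb. Their bodies held 54 peaks in 174 kb, 31.1 per 100 kb, and the 120 kb between them held 7, 5.85 per 100 kb. Myh2 and Myh1, the chains of fast adult fibres, had 41.5 and 36.8 peaks per 100 kb. Myh4 and Myh8, the fastest adult and the perinatal chain, had 30.9 and 25.4. Myh13, the chain of eye muscle, had 11.2 and was the least dense of the 6. Outside the cluster Myh7b on chromosome 2 had 39.0. Each of these except Myh13 lay above 95.2% or more of genes of similar length, and Myh13 above 75.2%. On chromosome 13, Ryr2 and Actn2 went the other way. Their bodies had 3.04 peaks per 100 kb, and the 162 kb between them held 9 peaks, 5.54 per 100 kb.

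Relatives of the 9 genes ranged widely in density. Myh9 and Myh10, myosins of nonmuscle cells, had 22.1 and 12.0 peaks per 100 kb, and Myh11, the smooth muscle myosin, had 5.12. Myh15 had 2.11, above 24.4% of genes of similar length. Actn1, the widely expressed alpha-actinin, had 10.8, close to the 11.2 of Actn2, and Actn3, the alpha-actinin of fast fibres, had 30.0 from 5 peaks. Nebl, the nebulin relative of heart, had 2.55 and Lasp1 had 15.1. Of the myomesins, Myom3 had 17.6. The T-type calcium channel genes Cacna1g, Cacna1h and Cacna1i had 21.2, 25.8 and 19.8, and the neuronal channel genes Cacna1b and Cacna1e had 4.39 and 3.04. Cacna1d (451 kb), an L-type channel like Cacna1s, had 30 peaks at 6.65 per 100 kb, above 89.2% of genes of similar length. Ryr3 (586 kb), the other ryanodine receptor on covered sequence, had 7 at 1.19, above 18.9%. A list of such relatives had 12 covered genes: Actn1, Nebl, Lasp1, Myh9, Myh10, Myh11, Myh15 and Cacna1b, e, g, h and i. Nebl is also counted among the thin filament genes below. Of the 12, 11 (91.7%) exceeded the median of genes of similar length. The share was 44.5% of all protein-coding genes and 49.9% of those of at least 20 kb. The exception among the 12 was Myh15.

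The wider machinery was read from 6 lists of 100 muscle genes. Of these, 78 lay on covered sequence and 69 were not among the 9. At least 1 peak was found in 61 of the 69 (88.4%), against 64.7% of all protein-coding genes and 85.0% of those of at least 20 kb. Of the 69, 43 (62.3%) were denser than the median of genes of similar length, against 44.5% and 49.9%. The median density was 6.93 per 100 kb, against 4.14 over all protein-coding genes. Pooled, the 69 genes had 6.03 peaks per 100 kb, close to the 5.69 of all protein-coding genes. The lists differed. All 5 further genes of the M band and elastic filament exceeded their median, as did 11 of 13 of the thick filament, 8 of 11 of the thin filament and 9 of 13 of the Z disc. Unc45b of the M band list did so barely, at 6.22 per 100 kb against a median that rounds to the same value. For some short genes, such as Actc1 and Tcap, the median was 0, so any peak exceeded it. In calcium handling 7 of 18 did, and among the myogenic regulators 3 of 9. The further genes of calcium handling, the list of Ryr2, had a median density of 2.03 per 100 kb, and those of the thick filament 14.5. These medians are not matched for length. Ranked among genes of similar length, the median gene lay above 39.7% and 75.2% of them. Cacna1s, in the same list as Ryr2, lay above 78.4%.

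Among the list genes with many peaks were Cacna1d (30 peaks), Nrap (20) and Flnc (16). Flnc, a Z-disc filamin, had 55.7 in 28.7 kb and ranked 4 among genes of at least 20 kb, close behind Myh3. Nrap, which anchors thin filaments, had 28.6. Among list genes of at least 20 kb, 2 had no peak, Casq2 (60.1 kb), the calcium store protein of heart, and Atp2a2 (48.7 kb), the calcium pump of heart and many other tissues.

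**Figure D5:**
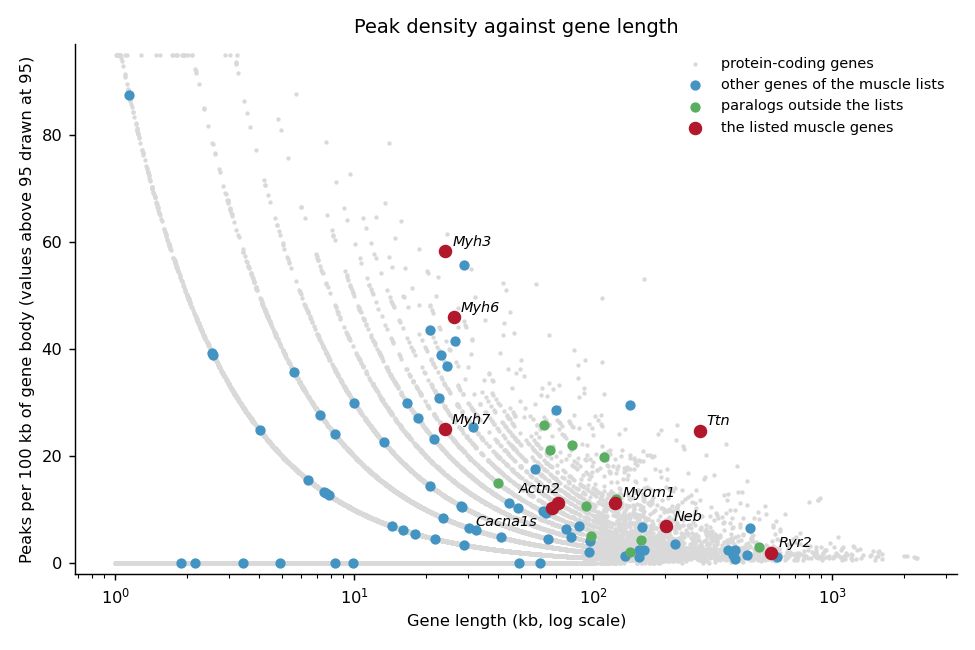
Peaks per 100 kb of gene body (y axis) against gene length (x axis, kb, log scale) for the 9 muscle genes (red, named), the other genes of the muscle lists (blue), paralogs outside the lists (green) and all protein-coding genes of at least 1 kb (grey). The curved rows are genes with 0, 1, 2 and more peaks; Myh3, Myh6 and Ttn lie at the upper edge for their length and Ryr2 among the bulk of genes.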

How the data were processed

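Per the labels' protocols, DNA was sonicated, enriched with MBD2 and sequenced. The submitters' processing notes name fastp, Bowtie2 and MACS2 and the builds mm10 and GRCm38, with no roles. Per the peak names, 3 datasets were merged with Samtools before calling. The deposited fold enrichment is a ratio to the background that the caller set. The deposited significances are −log10 p and −log10 q (lowest 20.004), and the deposited score is a whole-number form of the −log10 q. The list covers chromosomes 1 to 5 and 10 to 19 and part of 6; 1 incomplete line was left out.

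Starts were converted to 1-based. Genes were those of RefSeq GRCm38.p6 beyond the first 3 Mb; a peak belonged to a gene when its midpoint lay in the body. Pileup and background were solved from fold = (pileup + 1)/(background + 1) and a Poisson p. A whole pileup within 1% of the step matched 99.97% of peaks. A background within 0.01 reads of the lowest value counted as the lowest; this tolerance was set after a wider one had been tried. The solver and the counting were tested on simulated data (Python 3.11.15, SciPy 1.17.1).

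Genes named were the 9 chosen, their paralogs, the 5 list genes with most peaks (1 is not reported here) and list genes of at least 20 kb without one; per chosen gene, the most enriched and the widest peak and those within 1 kb of a gene end were eligible. Members and lists were chosen with earlier results of these data known. No test of control against cKO was made, since no column belongs to a sample.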

Additional observations from a re-analysis of the deposited data

How the results depend on the processing

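No paired analysis was possible because the peaks carry no value per sample, and no replicate could be left out. Of 9 genes, 8 exceeded the median of genes of similar length; this count was 8 or 9 under the other peak sets, placements and length windows tried, except for peaks above the lowest background alone, where it was 4. Without Ttn it was 7 of the 8 left. The total of 155 peaks became 96 for folds at or above the median, 84 with a −log10 q of at least 100, 28 above the lowest background and 86 without Ttn. The 11.3 peaks per 100 kb became 7.0 (median fold), 8.68 and 6.13 (−log10 q of at least 50 and 100), 9.27 (lowest background), 2.04 (above it), 9.49 (merged within 500 bp), 7.88 (without Ttn) and 17.6 (without Ryr2). The median width of 407 bp was 524 bp for folds at or above the median and 500 bp for a −log10 q of at least 50, where the median fold was 19.4. Gene ends held 3 peaks within 500 bp and 11 within 2 kb. Filters lower a count by construction. Leaving out Ttn or Ryr2 was chosen after seeing the data. The number of reads per sample is unknown, so a stretch without a peak may be one the depth could not show. The caller's comparison set is unknown too, so such a stretch need not lack methylation.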
